A study of Homo sapiens with 8 samples.

Results

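The genes described here are the D-type and E-type cyclins with their kinases, one kinase inhibitor and the retinoblastoma protein: CCND1, CCND2, CCND3, CCNE1, CCNE2, CDK2, CDK4, CDK6, CDKN1B and RB1. They were picked by name from general knowledge of the G1 phase, at a time when earlier results of these data were known. Each of the 10 symbols matched 1 row of the 60651 genes in the deposited table. Their levels were read as ribosome footprints (Ribo-seq), the mRNA fragments that ribosomes shield from nuclease, in IMR32 cells, a human neuroblastoma line with amplified MYCN and, per the labels, wild-type genotype. One group of 4 libraries came from cells given CR31B, an analogue of silvestrol that binds the RNA helicase eIF4A, and the other group of 4 from cells given the solvent DMSO at 0.1%. Treatment lasted 6 h, and both groups received cycloheximide, which halts ribosomes on the mRNA, before harvest. The dose of CR31B is not given in the sources used here. Levels are in TPM, which corrects for transcript length and gives every library the same sum. No mRNA libraries were analysed here, so a change in footprints cannot be divided between mRNA amount and translation of each mRNA, and gene-level TPM does not show where along the mRNA the reads lie.

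In G1, mitogen signals raise the D-type cyclins, which activate CDK4 and CDK6. These kinases, and then CDK2 with an E-type cyclin, phosphorylate RB1, which releases E2F transcription factors and lets the cell enter S phase. CDKN1B (p27) holds CDK2 complexes inactive. Cyclin D1 is short-lived and is often named among the proteins whose synthesis depends on eIF4A. Compounds of the CR31B class clamp eIF4A onto stretches of purines (A and G) in mRNA, and repeats of CGG in 5′ UTRs have been linked to sensitivity to silvestrol.

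For that reason the longest unbroken run of purines in the annotated 5′ UTR of the main coding transcript (GENCODE release 29, GRCh38) was found for each gene. It is given here in capitals, 5′ to 3′ on the mRNA strand, for the genes whose footprints fell (CCND1, CDK2), for the kinases of cyclin D and for RB1, followed by the CGG repeat of CDK6 in capitals.
CCND1: tgcccAGGAAGAGcccca
CDK2: aacgcGGGAAGcaggg
CDK4: ggggtGAGGGGGcctct
CDK6: gcttcGAGGAGGGAAGAGGAGGGAtcggc
RB1: cgggcGGGGGAGGGcgcgt
CDK6 repeat: tcctcCGGCGGCGGCGGCGGCGGcgact
The windows lie at chr11:69641293-69641310 on the + strand (CCND1), chr12:55966769-55966784 on the + strand (CDK2), chr12:57752313-57752329 on the - strand (CDK4), chr7:92833594-92833622 on the - strand (CDK6), chr13:48303757-48303775 on the + strand (RB1) and chr7:92833562-92833589 on the - strand (the CDK6 repeat).

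CDK6 stood apart from the other members by these letters. Its run was 19 bases long, a length that 3.35% of the 10093 coding genes with a 5′ UTR among those tested reached or passed. It was also the only one of the 10 genes whose 5′ UTR held CGG 4 times in a row, a motif present in 4.03% of those genes, or GGC 4 times in a row, present in 4.48%; these motifs overlap each other, and the mRNA strand alone was searched. Of the 424 such genes called lower under CR31B 6.37% held the CGG motif, and of the 349 called higher 4.87% did. Their median purine runs were 10 and 9 bases. Both sets also had longer 5′ UTRs, with medians of 310 and 285 bases against 206 bases over all such genes. No test was made of these shares, and they were not adjusted for 5′ UTR length. In CCND1 the run was 8 bases, equal to the median of 8 over the same genes, and it ended 8 bases before the start codon. CDK2 had a run of 6 bases. The 5′ UTR of CCND1 was 227 bases long with 65.6% G and C, near the medians of 206 bases and 66.5%, but with 59.0% purines it was at percentile 86.2. CDKN1B had the longest 5′ UTR of the 10 genes, at 716 bases and percentile 94.4, with a purine run of 12. CDK6, CCND2, CDKN1B, CCNE2 and RB1 had longer runs than CCND1. These are matches of letters in annotated transcripts, and which transcript the cells use was not measured.

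The libraries and the cells were checked first. Between 17857 and 22270 genes were listed above 0 per library. The estimated depth of a CR31B library was 59.4% to 87.4% of the DMSO library with the same replicate number, and its part in the results was not tested. Of 11 adrenergic neuroblastoma markers 10 were tested and 1, HAND2, was called higher (log2 fold change 0.58, limma adjusted p of 0.0188). With the replicate block MYCN (log2 fold change 0.55, limma adjusted p of 0.110, blocked 0.0301) was also called higher and DBH (-0.43, limma adjusted p of 0.272, blocked 0.0290) lower, so the markers did not move one way. TH alone averaged under 1 TPM. The summed level of that list was 1280 to 1860 TPM under CR31B and 1200 to 1430 TPM under DMSO, with MYCN, at 891 ± 230 TPM and 593 ± 55.9 TPM (SD, n = 4 each), the largest contributor. Mesenchymal markers summed to 128 to 163 TPM and 115 to 173 TPM, mostly VIM, with PRRX1 at 0; 0 of 4 tested were called by limma, none at an unadjusted p under 0.05, and COL1A1 was called lower with the block (log2 fold change -0.41, limma adjusted p of 0.0472). Immune and epithelial markers summed to at most 0.28 TPM in every library. The 3 endothelial markers summed to 0.35 to 0.57 TPM under CR31B and 0.62 to 1.01 TPM under DMSO, nearly all of it CDH5, with PECAM1 at 0.

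Cyclin D1 gave nearly all D-type cyclin footprints of these cells, and it fell more under CR31B than any other member tested. CCND1 (ENSG00000110092.4, chromosome 11, 69641087 to 69654474 on the + strand, GRCh38) was at 256.26, 224.84, 217.08 and 237.91 TPM across CR31B replicates 1 to 4. In DMSO replicates 1 to 4 it was at 458.57, 368.54, 549.37 and 448.49 TPM. Every CR31B library lay below every DMSO library, and the CR31B libraries spanned a narrower range. The mean was 234 ± 17.1 TPM under CR31B and 456 ± 74.0 TPM under DMSO (SD, n = 4 each), so that 51.3% of the DMSO level was left. On the log2(TPM + 1) scale CCND1 fell by 0.95 (SE 0.14, 95% interval -1.25 to -0.65, limma adjusted p of 0.00355). By an exact permutation test p was 0.0286, the smallest that 4 against 4 libraries allow. Any gene whose groups do not overlap gets this value, and the test leaves the replicate number out of account. Its fall ranked 161 of the 11778 genes tested, which put CCND1 at percentile 1.37. The call held in 18 of 18 alternative settings, with log2 fold changes from -1.05 to -0.85. In bulk cells, fewer cells in a phase of the cycle and fewer footprints per cell cannot be told apart. The value rested on an estimated 40850 reads or more per library with the main transcript of 4307 bases as the length, and 5020 or more with the shortest annotated coding transcript. LTO1, whose exons share 497 bases with CCND1 on the opposite strand, was at 15.4 TPM under CR31B and 12.9 TPM under DMSO.

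The other D-type cyclins added little. CCND2 was listed at 0 in all CR31B libraries and at 0.04, 0.01, 0 and 0 TPM across DMSO replicates 1 to 4, the first resting on an estimated 18 reads. It did not reach the mean of 1 TPM set for testing and got no fold change. CCND3 was at 10.47, 6.73, 12.14 and 11.48 TPM under CR31B and at 10.88, 7.03, 9.18 and 8.68 TPM under DMSO. Its groups overlapped, replicate 2 was the lowest library of both, and the log2 fold change was 0.16 (95% confidence interval -0.26 to 0.57, limma adjusted p of 0.667). CCND1 made up 98.1% ± 0.284 of the TPM of the D-type cyclins in DMSO and 95.8% ± 1.02 in CR31B (SD, n = 4 each). The pseudogenes CCND2P1, CCND3P1 and CCND3P2, and CCND2-AS1, ENSG00000285901 and ENSG00000223946, which share exon bases with CCND2 or CCND3, were listed at 0 in all libraries.

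**Figure D1:**
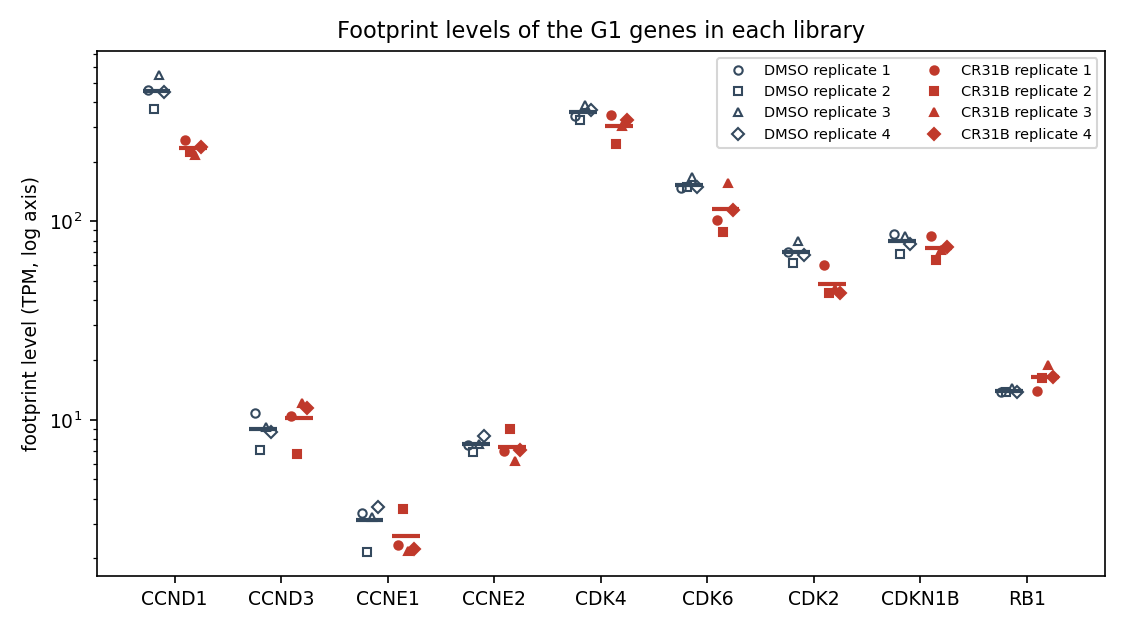
Footprint level (TPM, log axis) of 9 G1 genes in each of the 4 DMSO libraries (open symbols) and 4 CR31B libraries (filled symbols), with the group mean as a bar; symbol shape gives the replicate number, and CCND2 is left out because it was at 0 in 6 libraries. All CR31B points of CCND1 (217.08 to 256.26 TPM) and CDK2 (43.37 to 60.16 TPM) lie below the DMSO points.

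E-type cyclins, the partners of CDK2, were low and did not pass the test. CCNE1 was at 2.34, 3.55, 2.19 and 2.24 TPM under CR31B and at 3.40, 2.16, 3.24 and 3.64 TPM under DMSO. Replicate 2 was the highest CR31B library and the lowest DMSO library, so the groups overlapped. Its log2 fold change was -0.20 (95% confidence interval -0.59 to 0.19, limma adjusted p of 0.545). CCNE2 was at 6.96, 8.98, 6.18 and 7.08 TPM under CR31B and at 7.45, 6.88, 7.58 and 8.31 TPM under DMSO. Here too the groups overlapped, and the log2 fold change was -0.05 (95% confidence interval -0.35 to 0.24, limma adjusted p of 0.864), with a sign that turned, to 0.01, without CR31B replicate 3. These intervals exclude a fall in CCNE2 as large as that of CCND1, while the difference between the genes was not tested. For CCNE1 the estimate was 194 to 594 reads in a library. CCNE2 shares 1629 exon bases with INTS8 on the opposite strand, at 11.2 TPM under CR31B and 14.6 TPM under DMSO, and how reads were divided by strand is not stated, so its level is uncertain. ENSG00000272509, which shares 4 exon bases with CCNE2, was listed at 0.

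CDK2, the kinase that E-type cyclins activate, was the other member that fell. It was at 60.16, 43.37, 45.69 and 43.75 TPM across CR31B replicates 1 to 4 and at 69.70, 61.94, 79.25 and 68.06 TPM across DMSO replicates 1 to 4. The groups did not overlap, but CR31B replicate 1 came just under the lowest DMSO library, replicate 2. The mean was 48.2 ± 8.01 TPM under CR31B and 69.7 ± 7.17 TPM under DMSO (SD, n = 4 each), 69.2% of the DMSO level. On the log2(TPM + 1) scale CDK2 fell by 0.53 (SE 0.13, 95% interval -0.83 to -0.23, limma adjusted p of 0.0382), and an exact permutation test gave 0.0286. This call was close to the threshold and held in 9 of 18 alternatives. The limma adjusted p was 0.0844, 0.0831 and 0.100 without CR31B replicates 2, 3 and 4, and 0.0914, 0.0600, 0.0811 and 0.0968 without DMSO replicates 1 to 4, while without CR31B replicate 1 it was 0.0147. CR31B replicate 1 was also the library with the largest protein-coding share of TPM, 61.3%, where its fellow CR31B libraries had 51.8% to 52.3%. The share varied among the DMSO libraries too, at 58.4%, 54.6%, 52.0% and 57.2% in replicates 1 to 4. With TPM rescaled over protein-coding genes the log2 fold change was -0.50 (limma adjusted p of 0.0187). PMEL, which shares 89 exon bases with CDK2 on the opposite strand, was at 21.0 TPM under CR31B and 28.9 TPM under DMSO, with groups that did not overlap and a limma adjusted p of 0.0872; its part in the CDK2 value was not tested. ENSG00000258554, which shares 565 exon bases with CDK2, was at 0.375 TPM and 0.315 TPM.

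Neither kinase of cyclin D passed the test. CDK4 was at 345.69, 245.15, 301.30 and 324.12 TPM under CR31B and at 338.13, 326.10, 385.57 and 365.82 TPM under DMSO, so the groups overlapped. Its log2 fold change was -0.23 (95% confidence interval -0.52 to 0.06, limma adjusted p of 0.331). CDK6 was at 101.79, 88.83, 155.31 and 113.88 TPM under CR31B and at 147.45, 148.33, 166.59 and 149.34 TPM under DMSO. In CR31B 3 libraries lay below all of DMSO, and replicate 3 stood inside the DMSO range. The log2 fold change of CDK6 was -0.44 (SE 0.16, 95% confidence interval -0.79 to -0.08), and it was lower in CR31B in 4 of 4 replicate pairs. It had an unadjusted p of 0.0203 but a limma adjusted p of 0.132, so it did not pass. With the replicate number as a block the limma adjusted p was 0.0502. With CR31B replicate 3 left out, CDK6 was at -0.59 and passed (limma adjusted p of 0.0271), so that library decided the call. CDK6-AS1, an antisense gene that shares 81 exon bases with CDK6, was at 55.6 TPM under CR31B and 43.2 TPM under DMSO (log2 fold change 0.39, limma adjusted p of 0.311). CDK4 shares 1369 exon bases with TSPAN31 on the opposite strand, which was far lower, at 14.5 TPM under CR31B and 16.2 TPM under DMSO, and its pseudogene CDK4P1 was at or near 0.

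The inhibitor CDKN1B and the kinase substrate RB1 did not pass the test either. CDKN1B was at 84.30, 63.98, 71.84 and 74.69 TPM under CR31B and at 86.47, 68.63, 84.53 and 77.24 TPM under DMSO. Each CR31B library was lower than the DMSO library of its number, by a little, while the groups overlapped (log2 fold change -0.10, 95% confidence interval -0.37 to 0.17, limma adjusted p of 0.663). RB1 was at 13.93, 16.19, 18.99 and 16.34 TPM under CR31B and at 13.77, 13.79, 14.48 and 13.88 TPM under DMSO. Its value was higher in CR31B in 4 of 4 pairs, but CR31B replicate 1 lay within the tight DMSO range. The log2 fold change of RB1 was 0.21 (95% confidence interval -0.05 to 0.46, limma adjusted p of 0.324; 0.0571 by exact permutation), and it passed in 0 of 18 alternatives.

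**Figure D2:**
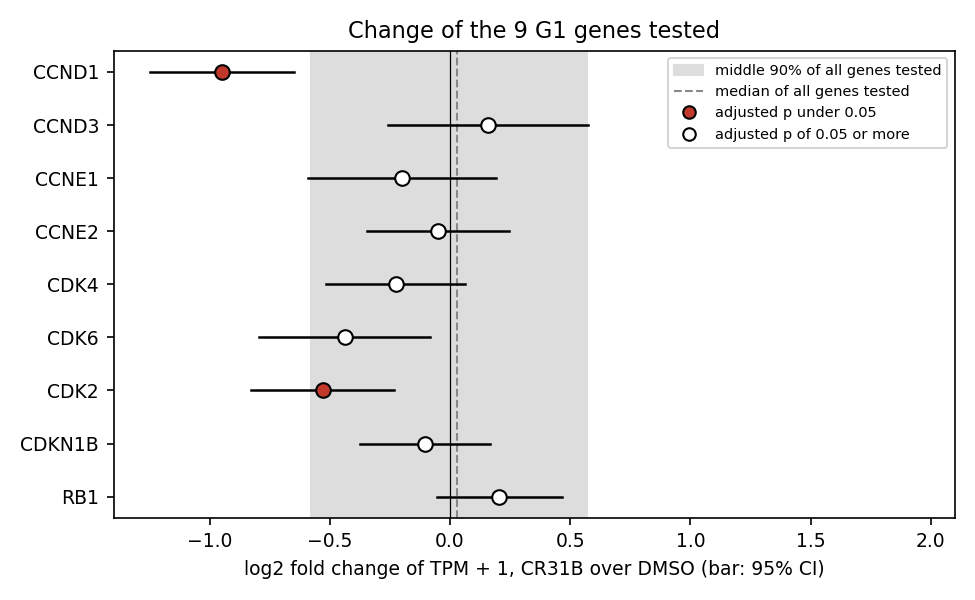
Log2 fold change of TPM + 1 (CR31B over DMSO, n = 4 each) for the 9 G1 genes tested, with 95% confidence intervals from limma; red points passed an adjusted p of 0.05, and the grey band holds the middle 90% of all 11778 genes tested (-0.58 to 0.57). CCND1, at -0.95, lies outside the band, and the other genes lie inside it.

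Across the 10 genes, 9 were tested, 2 were called lower (CCND1 and CDK2) and 0 higher by limma. At an unadjusted p under 0.05 there were 3 lower, CDK6 being the third, and 0 higher, where 11.3% of all genes tested were lower and 12% higher at that level. Of all 11778 genes tested, 4.02% were called lower and 3.45% higher at an adjusted p under 0.05. This balance moved with the scaling, from 473 lower and 406 higher to 733 and 445 with libraries scaled to the same median, and to 565 and 662 with TPM rescaled over protein-coding genes; CCND1 and CDK2 were called lower under both. Over all genes tested, with the replicate block 12.3% were called in either direction. All CR31B libraries lay below all DMSO libraries for 8.14% of tested genes, and among the G1 genes for CCND1 and CDK2. The reverse order held for 8.07% of tested genes and for none of the G1 genes. The median log2 fold change was -0.20 for the 9 G1 genes and 0.029 for all genes tested, and 7 of the 9 values were below 0, as were 45.9% of all values.

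**Figure D3:**
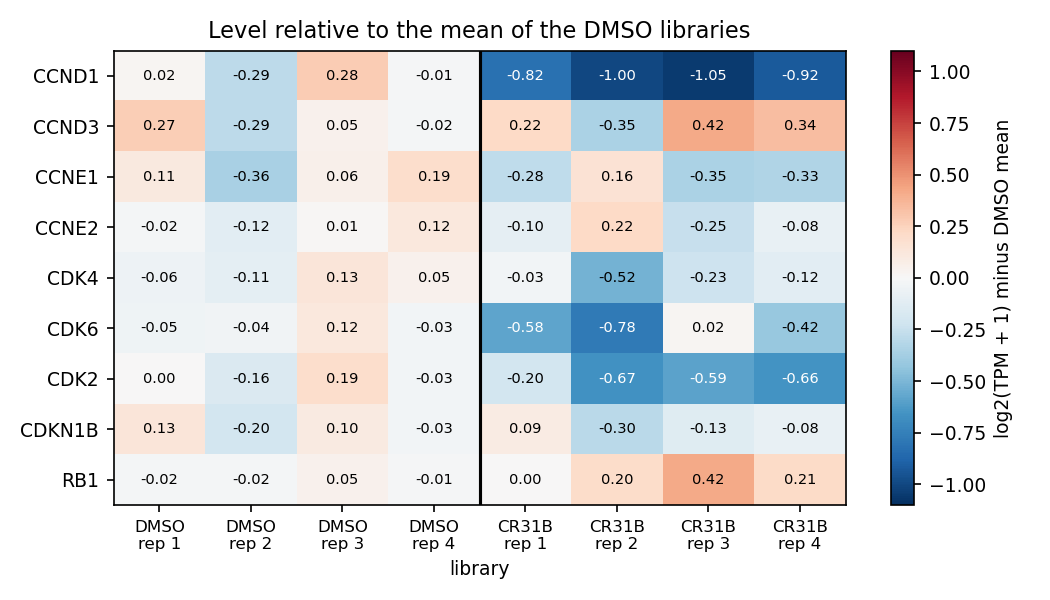
Level of each of 9 G1 genes in each library, as log2(TPM + 1) minus the mean of the 4 DMSO libraries; columns are libraries, blue is lower and red is higher. CCND1 is between -1.05 and -0.82 in all CR31B libraries, and CDK6 ranges from -0.78 in replicate 2 to 0.02 in replicate 3.

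Since all TPM values of a library share 1 sum, ratios between genes of the same library were also taken; they do not depend on that sum, and no test was made of them. The log2 ratio of CCND1 to CDK4 was -0.43, -0.12, -0.47 and -0.45 in CR31B replicates 1 to 4 and 0.44, 0.18, 0.51 and 0.29 in DMSO replicates 1 to 4. On the TPM scale cyclin D1 thus stood above its kinase CDK4 in all DMSO libraries and below it in all CR31B libraries. Per coding length it would stand above CDK4 in both groups, if the annotated main transcripts were the lengths used. Against the inhibitor CDKN1B, the log2 ratio of CCND1 averaged 1.67 ± 0.101 under CR31B and 2.52 ± 0.135 under DMSO (SD, n = 4 each), without overlap. The ratio of CCND1 to CDK6 was less separated, at 0.48 to 1.34 in CR31B and 1.31 to 1.72 in DMSO, with CDK6 below all of DMSO in 3 CR31B libraries. For CDK2 to CDKN1B the log2 ratio was -0.77 to -0.49 in CR31B and -0.31 to -0.09 in DMSO, again without overlap. The ratio of CDK4 to CDKN1B overlapped, at 1.94 to 2.12 in CR31B and 1.97 to 2.25 in DMSO. Summed over each role, D-type cyclins went from 465 ± 74.9 TPM under DMSO to 244 ± 17.5 TPM under CR31B (SD, n = 4 each). E-type cyclins summed to 9.04 to 11.95 TPM and 8.37 to 12.53 TPM.

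**Figure D4:**
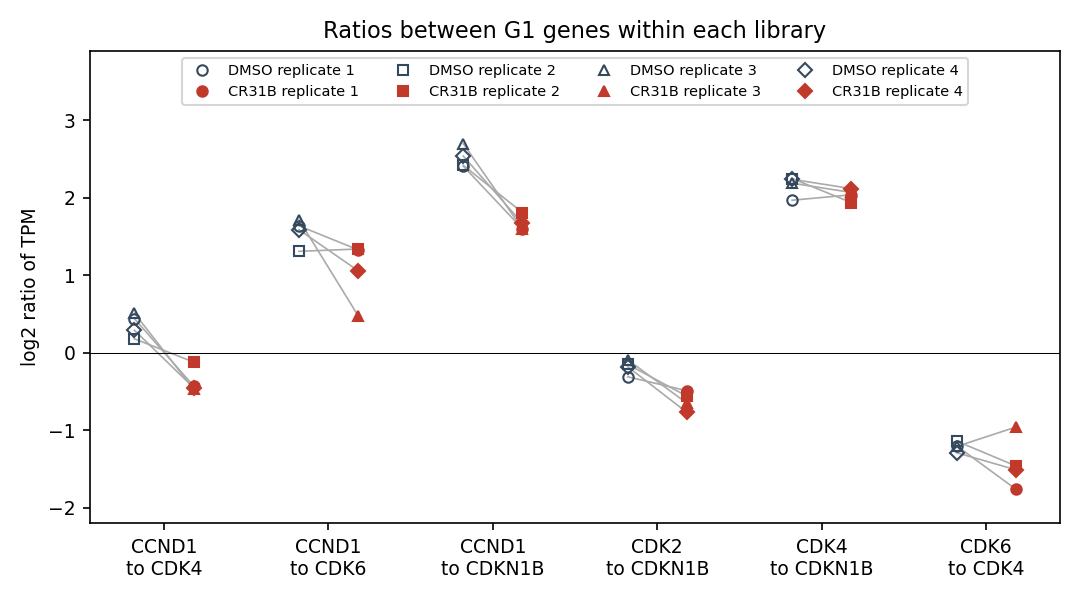
Log2 ratio of TPM between pairs of G1 genes within each library; grey lines join the DMSO (open) and CR31B (filled) library of the same replicate number. The ratio of CCND1 to CDK4 goes from 0.18 to 0.51 in DMSO to -0.47 to -0.12 in CR31B, and the ratio of CDK4 to CDKN1B overlaps.

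By level in DMSO the order was CCND1, CDK4, CDK6, CDKN1B, CDK2, RB1, CCND3, CCNE2, CCNE1 and CCND2. Neighbours whose libraries overlapped were CCND1 with CDK4, CDKN1B with CDK2, and CCND3 with CCNE2. In CR31B the order was the same except that CDK4, at 304 ± 43.3 TPM, stood above CCND1, still with overlapping libraries, and CDKN1B no longer overlapped CDK2. These levels are per transcript length, while footprints lie mostly on coding sequence. The coding part is 8.42% of the annotated 11612-base transcript of CDK6 but 43.8% of that of CDK4. If these transcripts were the lengths used, which is not stated, the DMSO level per coding length would be 1816 for CDK6, 808 for CDK4 and 2220 for CCND1 in TPM units, which places CDK6 above CDK4. Under CR31B the same measure would be 1139 for CCND1 and 694 for CDK4, so CCND1 would stay above CDK4 in both groups. Fold changes between groups do not depend on that length if it was the same in all libraries, which is not stated.

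The genes most like each called member were sought among 5612 other genes that averaged 10 TPM or more, by the root mean square distance between log2 levels relative to the DMSO mean over the 8 libraries. Nearest to CCND1 were MACROH2A1, a histone variant (distance 0.0922), SPPL3, an intramembrane protease (0.0937), and PPP4C, a phosphatase catalytic subunit (0.109). MACROH2A1 was at 67.8 ± 4.73 TPM under CR31B and 130 ± 15.4 TPM under DMSO (SD, n = 4 each), 52.2% of the DMSO level, and the log2 fold changes of SPPL3 and PPP4C were -0.97 and -0.88. Among the nearest to CDK2 were FBXO7, an F-box protein (0.0843), and GSTO1, a glutathione transferase (0.0906), with log2 fold changes of -0.53 and -0.50. A measure of this kind picks genes of equal fall and equal scatter and is a description of these 8 libraries.

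The rest of the G1/S machinery was read from 7 lists with 68 genes, of which 65 were tested. By limma 3 genes were called higher and 5 lower, or 4.62% and 7.69% of those tested, beside 3.45% and 4.02% over all genes, with no test of the difference. The median log2 fold change was 0.01, against 0.029 over all genes. Among the other CDK inhibitors 1 of 5 tested was called: CDKN1A (p21), at 16.8 ± 2.57 TPM under CR31B and 26.9 ± 4.90 TPM under DMSO, fell by 0.65 on the log2 scale (limma adjusted p of 0.0299). Of 12 pocket proteins, E2F factors and their partners, E2F2 fell by 0.81 (limma adjusted p of 0.0243), from 6.49 ± 1.18 TPM under DMSO to 3.30 ± 0.926 TPM. The RB1 relatives RBL1 and RBL2 had log2 fold changes of 0.04 and 0.25 and did not pass. In the DREAM/MuvB list LIN54, a DNA-binding subunit, rose by 0.96 (limma adjusted p of 0.0288). It went from 3.14 ± 0.346 TPM under DMSO to 7.42 ± 3.31 TPM under CR31B, and CR31B replicate 3, at 12.32 TPM, was the highest library.

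Of 7 genes that act on CDK activity, 1 was called higher and 1 lower. They are the CDK-activating kinase and CDC25 phosphatases, the inhibitory kinase WEE1 and the chaperone CDC37. MNAT1, the assembly factor of the CDK-activating kinase, rose by 0.85 (limma adjusted p of 0.00708), from 27.2 ± 3.91 TPM under DMSO to 49.9 ± 7.10 TPM under CR31B. Its partners CCNH and CDK7 had log2 fold changes of 0.53 and -0.21 and did not pass (limma adjusted p of 0.0846 and 0.366). For CCNH all CR31B libraries lay above all DMSO libraries. CDC25B, a phosphatase that activates CDKs, fell by 0.64 (limma adjusted p of 0.0347), from 71.3 ± 7.91 TPM under DMSO to 45.8 ± 9.40 TPM. WEE1 had a log2 fold change of -0.46, with all CR31B libraries below all DMSO libraries, and did not pass (limma adjusted p of 0.0737, or 0.0334 with the replicate block). Among other cyclins and kinases 2 of 5 tested were called lower: CDK1, the mitotic kinase (log2 fold change -0.55, limma adjusted p of 0.0304), and CCNG1, cyclin G1 (-0.56, limma adjusted p of 0.0456).

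In the list for turnover of cyclins and p27 limma called 0 of 11, and 3 had an unadjusted p under 0.05, as did 23.4% of all genes tested. FBXW7, the ubiquitin ligase subunit that recognises cyclin E, had the smallest p of that list (log2 fold change -0.67, limma adjusted p of 0.0552, or 0.0443 with the replicate block). Of 20 E2F target genes of the G1/S step 1 was called higher and 0 lower by limma, and 3 had an unadjusted p under 0.05, against the same 23.4%. For the E2F targets the median log2 fold change was 0.01, with CCNA2 at 0.08 and PCNA at 0.01. With the replicate block 13 of the 65 genes were called, adding CKS1B, E2F6, FBXW7, GSK3B and WEE1. Of the 8 calls, MNAT1 alone held in all its alternatives (18 of 18); the others held in 9 to 12 of 17 or 18 and all 7 were lost without DMSO replicate 1 and again without DMSO replicate 4. The count was 5, 4 and 4 without CR31B replicates 2, 3 and 4, and 1, 2, 5 and 1 without DMSO replicates 1 to 4.

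**Figure D5:**
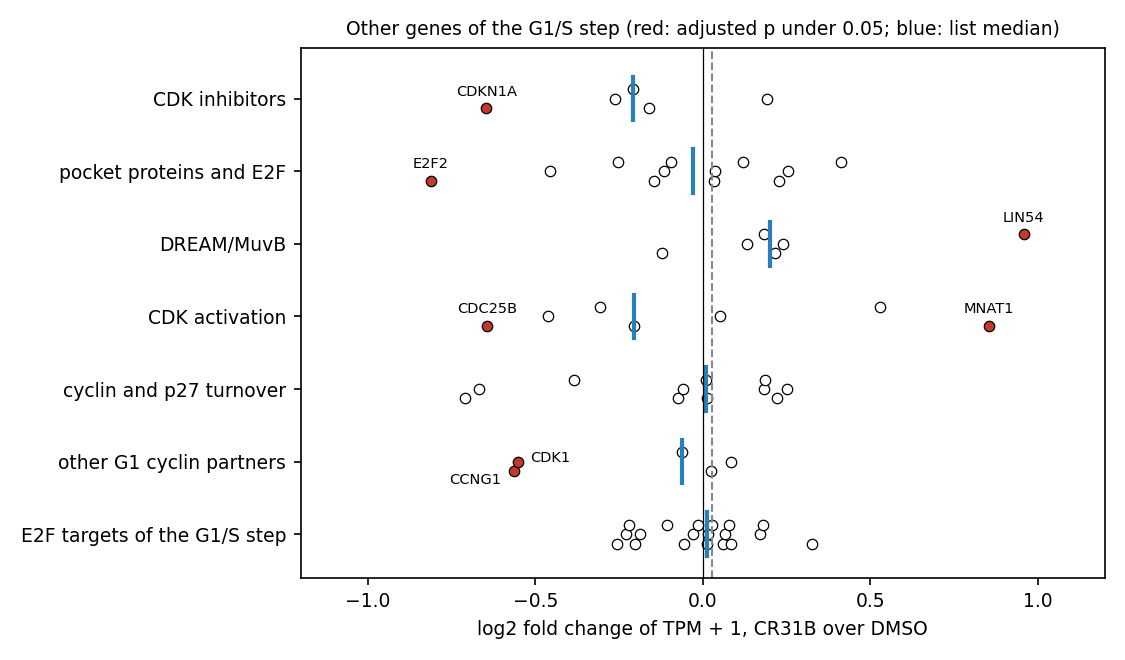
Log2 fold change of TPM + 1 (CR31B over DMSO) for tested genes of 7 lists of the G1/S step; each point is a gene (CCNA2 stands in 2 lists), red with its name where the limma adjusted p was under 0.05, the blue bar is the median of the whole list and the dashed line the median of all genes tested (0.029). LIN54 and MNAT1 are red on the right and 5 genes on the left. The 1 E2F target called higher is not reported here and is not drawn, and the median of that list is 0.01.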

How the data were processed

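The authors deposited 1 table of gene-level TPM for 8 Ribo-seq libraries, and column names match the library descriptions. Footprints were selected by size and sequenced in more than 1 run, per the labels' protocols, with no record of which library was in which run. Per the submitters' processing notes, cutadapt 3.2, Bowtie2 2.3.4.1, STAR 2.7.1a, RSEM 1.2.28 and DESeq2 1.32.0 were used with GRCh38; their settings, the annotation and the strand setting are not given in the sources used here. TPM are not counts, so log2(TPM + 1) of the 11778 genes averaging 1 TPM or more was fitted with limma 3.58.1 (R 4.3.3, mean-variance trend), with Benjamini-Hochberg adjustment over all of them and a threshold of 0.05. The fit was tried on simulated data with libraries drawn independently, so its error rate under the shared deviation of replicate numbers was not tested. For single genes a two-sided exact permutation test (70 assignments of libraries, regardless of replicate number) was added. Read numbers were estimated from the TPM steps of genes with a single annotated transcript, as TPM keeps no depth. P-values measure the spread between libraries described as biological replicates.

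Libraries with the same replicate number deviated together after group means were removed (correlations of 0.333, 0.324, 0.301 and 0.105 for numbers 1 to 4), so the number was used as a block in an alternative fit. Other alternatives changed the pseudocount, the filter, the scaling and the variance model, or left out 1 library. Beside the 10 genes, the text names each gene called in the G1/S lists (in a list with none, the gene of smallest p), the 3 genes nearest to each called member, and genes or pseudogenes that could share its reads, except items that are not reported here; RBL1, RBL2, CCNH, CDK7, CCNA2 and PCNA were added after their values were seen. CKS1B, E2F6, GSK3B and WEE1 are named for their calls with the replicate block. Members and lists were chosen with earlier results of these data known. Features came from GENCODE 29. Python 3.11.15, NumPy 2.4.6, pandas 2.3.3 and matplotlib 3.10.9 served for other steps.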

Additional observations from a re-analysis of the deposited data

Results flagged for a closer look

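Among the 35 gene and treatment combinations with 4 values, 6 had 1 value set apart from the rest by more than Dixon's 95% critical value; about 1 in 20, or 1.8 here, would do so by chance. In CR31B these were CCNE1 in replicate 2, at 3.55 TPM against 2.19 to 2.34 TPM, CDK2 in replicate 1, at 60.16 TPM against 43.37 to 45.69 TPM, and LIN54 in replicate 3, at 12.32 TPM against 5.11 to 6.21 TPM. In DMSO they were CDK6 in replicate 3, at 166.59 TPM against 147.45 to 149.34 TPM, RB1 in the same library, at 14.48 TPM against 13.77 to 13.88 TPM, and CDKN1A in replicate 4, at 34.13 TPM against 23.64 to 25.33 TPM.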

How the results depend on the processing

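The fall of CCND1 kept its call in 18 of 18 alternatives (limma adjusted p from 0.00170 to 0.0186), and that of CDK2 in 9 of 18 (0.0147 to 0.100). The count of G1 genes called lower went from 2 to 1 without a filter on low values and without the mean-variance trend, where CDK2 was lost, and ran from 1 to 2 with 1 library left out; the count called higher stayed at 0. Over all tested genes, 879 were called; the count was 442 of 28564 genes without a filter, 1453 with the replicate block and 404 to 785 with 1 library left out (516 without CR31B replicate 4, and 502, 514 and 404 without DMSO replicates 1, 2 and 4). The split was 473 lower and 406 higher; it was 733 and 445 with libraries scaled to the same median, 687 and 487 with quantile normalization, and 565 and 662 with TPM rescaled over protein-coding genes. Of the 65 other G1/S genes 8 were called, against 1 without a filter, 13 with the replicate block, and 1 to 6 with 1 library left out. The replicate block changed no call among the 10 genes. The sign of CCNE2 turned without CR31B replicate 3, over a range of -0.14 to 0.01, and no other member tested changed sign. In the level per coding length, chosen after seeing the data, the log2 ratio of CDK6 to CDK4 in DMSO went from -1.21 to 1.17, by its construction. With the main transcript as the length, CCND2 rested on the fewest estimated reads, 0 to 18 per library, and CCNE1 on the next fewest, 194 to 594.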
